A study of Mus musculus with 2 samples.

Results

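The genes described here are the fibroblast growth factor (FGF) family of the mouse and its immediate signalling partners, 40 of the 22740 genes in the deposited table. They were taken by gene symbol alone: all 22 numbered Fgf genes, the receptors Fgfr1 to Fgfr4, the decoy receptor Fgfrl1, the carrier proteins Fgfbp1 and Fgfbp3, the feedback inhibitors Spry1 to Spry4 and Spred1 to Spred3, the docking proteins Frs2 and Frs3, and the co-receptors Kl and Klb. Polyadenylated RNA came from the whole uterus of 2 independent C57BL/6 mice at day 4 of pregnancy, with 1 library per animal. The titles call both WT, and no treatment, allele or second group is given, so the data describe levels and how far 2 animals differed, with no contrast between conditions. Below, uterus 1 is the library titled WT1 and uterus 2 the library titled WT2.

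FGFs are secreted proteins that bind receptor tyrosine kinases together with heparan sulphate chains on the cell surface. The activated receptor phosphorylates the docking protein FRS2, which recruits GRB2 and SOS and switches on the RAS to ERK cascade. Sprouty and Spred proteins are induced by or act on the same cascade and restrain it. In the mouse uterus FGFs made by the stroma act on receptors of the epithelium, and the progesterone-induced stromal factor HAND2 is known to hold stromal FGFs down around the time of implantation. Whole uterus holds epithelium, stroma, muscle, vessels and leukocytes together, so fewer cells of a type and less RNA per cell cannot be told apart.

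Levels are the authors' RPKM (reads per kilobase of transcript, scaled to the size of the library), which allow genes to be compared per length. The whole reads behind each value were recovered from the RPKM themselves and summed to 3804297 in uterus 1 and 4225529 in uterus 2. Intervals in brackets are 95% intervals that cover counting error only. Markers of the labelled tissue were present: the summed RPKM of 5 stromal markers was 4129 and 4031 in uterus 1 and uterus 2, that of 5 smooth muscle markers 1741 and 1737, and that of 5 epithelial markers 244 and 279. All 4 endothelial markers and 3 of 4 leukocyte markers stood at 1 RPKM or more in both. Markers of the ovary and oviduct summed to 9.94 and 14.0 RPKM, those of the blastocyst to 2.35 and 1.66, those of fat to 1.63 and 0.489 and those of nerve to 3.55 and 3.84, with Cdx2, Adipoq and Cidec listed at 0.

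More of the receptor, docking and feedback genes than of the Fgf genes were detected. At a threshold of 1 RPKM in both uteri, 18 of the 40 genes (45.0%) were detected, against 58.4% of all genes in the table. Of the 14 receptors, decoy receptor, docking proteins, Sproutys and Spreds, 12 were detected. Of the 22 Fgf genes, 6 were. A further 3 members, Fgf12, Fgf18 and Fgfbp3, passed the threshold in uterus 1 alone, 8 lay above 0 and under it in both, and 11 were listed at 0 in both, where 23.4% of all genes were. A listed 0 is not read as absence, since Rpl26, a ribosomal component that no cell type is known to lack, was likewise listed at 0 in both. Just inside the threshold stood Fgf13 at 1.26 and 1.23 RPKM and Fgfr3 at 1.36 and 1.28 RPKM, and just outside it Fgfbp3 at 2.23 and 0.937 RPKM and Fgf12 at 1.06 and 0.603 RPKM.

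**Figure D1:**
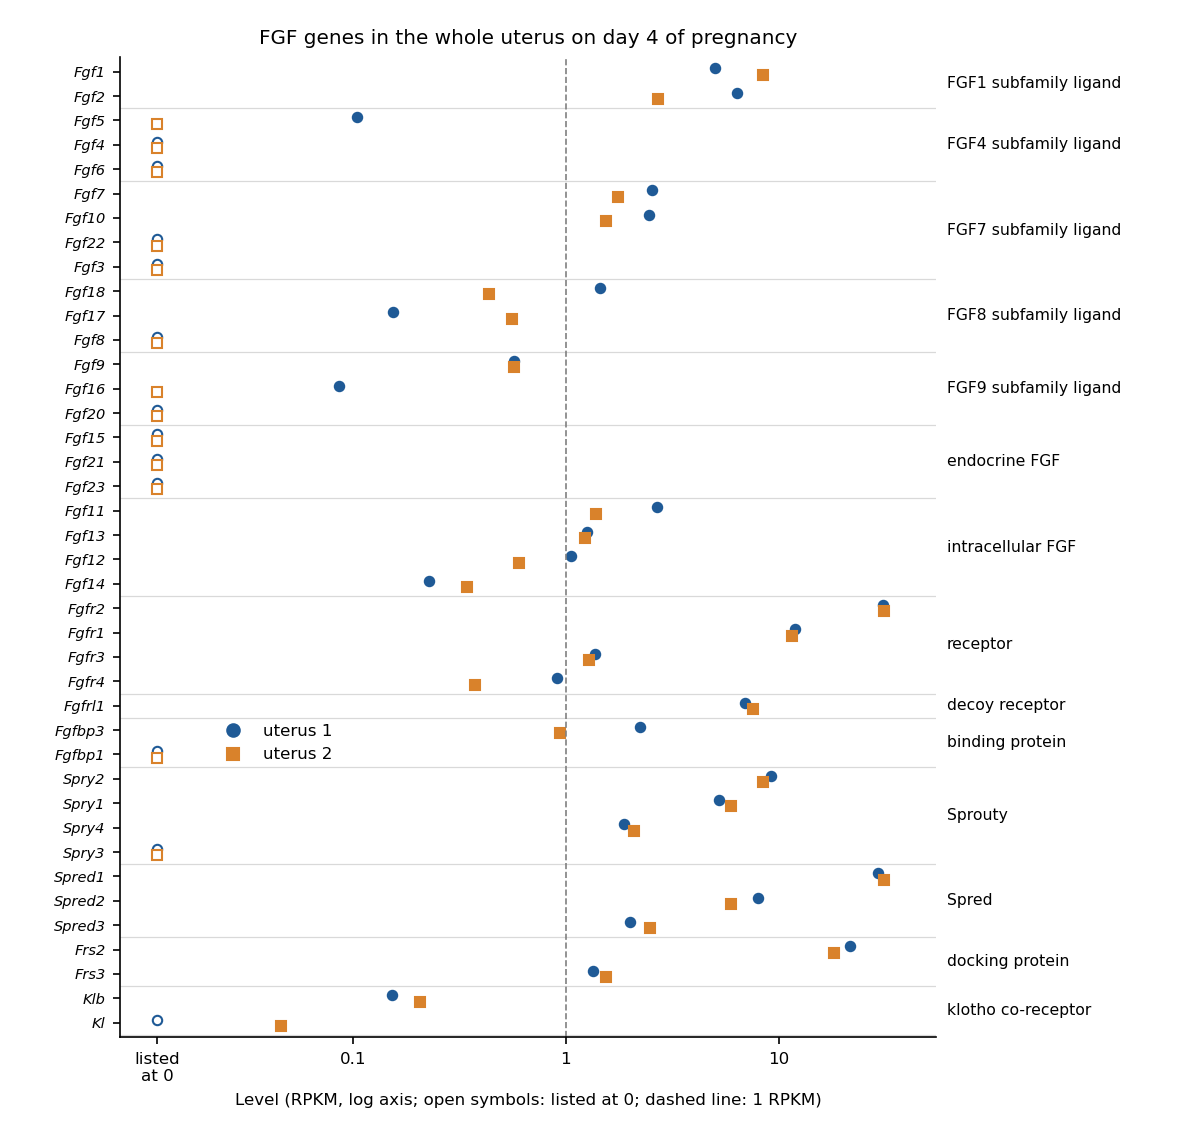
Level of each of the 40 genes in uterus 1 (circles) and uterus 2 (squares), in RPKM on a log axis, grouped by role and ordered by mean within it, with open symbols for values listed at 0 and a dashed line at 1 RPKM. Fgfr2 and Spred1 stand farthest to the right near 31 and 30 RPKM, and 9 of the 22 Fgf genes are listed at 0 in both.

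Among ligands, the FGF1 subfamily was highest. Its members Fgf1 and Fgf2, which bind several receptors and lack a classical secretion signal, together made up 65.2% ± 6.31 (SD, n = 2) of the summed RPKM of the 18 signalling ligands. That sum was 18.7 RPKM in uterus 1 and 16.0 RPKM in uterus 2. The summed level of the 4 receptors was 2.59 ± 0.258 times higher (SD, n = 2).

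Fgf1 (NM_010197, chromosome 18, 38998327 to 39078353, minus strand, build mm9) stood at 5.004 RPKM (3.94 to 6.27) in the first uterus and 8.48 RPKM (7.13 to 9.995) in the other. These values rest on 75 and 141 reads, so the counting intervals do not overlap and uterus 2 was the higher. The ratio was 1.69 (1.27 to 2.27), a log2 ratio of 0.75. The two-sided exact binomial test of these reads gave a Benjamini-Hochberg adjusted p of 0.00815 over 15122 genes, and of the 24 members tested 1, Fgf1, passed. Of all genes 4.66% passed, 2.13% with the higher value in uterus 2 and 2.53% with the higher value in uterus 1. The test sets the 2 libraries against counting error and says nothing of conditions. With the smallest whole-number reads that the RPKM of Fgf1 allow, 25 and 47, its adjusted p by that exact test fell short at 0.289. The larger reads imply a transcript of 3909 bases, exactly the annotated exon length inside the deposited span of Fgf1. Gm5820, which overlaps Fgf1 on the opposite strand, stood at 0.358 and 0.107 RPKM.

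Some marker sums were, like Fgf1, higher in uterus 2: epithelium at 244 and 279 RPKM with 3 of 5 genes higher there, leukocytes at 53.6 and 59.7 RPKM with 2 of 4, ovary and oviduct at 9.94 and 14.0 RPKM with 2 of 4, and nerve at 3.55 and 3.84 RPKM with 2 of 4. The sums of stroma, smooth muscle and endothelium were not higher there, but 4 of 5, 4 of 5 and 3 of 4 of their genes were. The sums of the blastocyst, at 2.35 and 1.66 RPKM, and of fat, at 1.63 and 0.489 RPKM, were lower there. Over all these marker lists, 4 genes passed the exact binomial test with the higher value in uterus 2, the epithelial Krt18, the stromal Dcn and Vim and the muscle gene Myh11. The stromal Col1a1, the muscle gene Acta2 and the endothelial Kdr passed with the higher value in uterus 1. All epithelial, stromal, muscle, endothelial and leukocyte markers were tested. So were 3 of the ovary and oviduct, 2 of the blastocyst, 3 of the nerve and 0 of the fat markers. Of all genes 4.66% passed in either direction, and the test covers counting error only. The part of these markers in the difference was not tested.

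Fgf2 (NM_008006, chromosome 3, 37247575 to 37303752, plus strand) went the other way in value, at 6.38 RPKM (3.72 to 10.2) and 2.70 RPKM (1.17 to 5.33). It rests on only 17 and 8 reads, because the counted transcript is 695 bases long, and the intervals overlap. The log2 ratio was -1.21, past the 2-fold line, but the exact binomial test gave an adjusted p of 0.306, so the difference was not beyond counting error at this depth. Fgf2 led Fgf1 in uterus 1 and trailed it in uterus 2, with ratios of Fgf2 to Fgf1 of 1.27 and 0.319, and the order of the pair is therefore not settled by these libraries. Nudt6, whose deposited span lies next to that of Fgf2 on the opposite strand, stood at 3.65 and 4.16 RPKM. The longest annotated Fgf2 transcript is 1240 bases, so the level of Fgf2 per length also depends on the transcript that was counted.

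The stromal ligands of the FGF7 subfamily came next. Fgf7, keratinocyte growth factor, which signals from stroma to epithelium, stood at 2.54 and 1.76 RPKM on 26 and 20 reads. Fgf10, which uses the same epithelial receptor form, stood at 2.45 and 1.54 RPKM on 43 and 30 reads. Both had values lower in uterus 2, by log2 ratios of -0.51 and -0.64, and neither passed the exact binomial test, with adjusted p of 0.654 for Fgf7 and 0.352 for Fgf10. Their ranges overlap each other, and Fgf7 was 1.09 ± 0.0750 times Fgf10 (SD, n = 2). Together they held 23.6% ± 4.29 (SD, n = 2) of the ligand sum. Fgf22 and Fgf3 of the same subfamily were listed at 0 in both.

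The remaining ligands stayed under 1 RPKM on average. Fgf18 stood at 1.44 and 0.433 RPKM on 6 and 2 reads, and Fgf9 at 0.567 and 0.568 RPKM on 9 and 10 reads. Whole uterus does not resolve which cells made them. Fgf17 had 1 and 4 reads. Fgf5 and Fgf16 had 1 read each in uterus 1 and were listed at 0 in uterus 2. Fgf4, the ligand that the early embryo makes, Fgf6, Fgf8 and Fgf20 were listed at 0 in both, as were the endocrine FGFs Fgf15, Fgf21 and Fgf23, hormones of bile acid, energy and phosphate balance.

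Both groups of Fgf genes that lie close together in the genome were listed at 0 throughout. On chromosome 7, Fgf3 (152024517 to 152029253), Fgf4 (152047291 to 152051148) and Fgf15 (152082437 to 152086856) follow each other at gaps of 18.0 and 31.3 kb. On chromosome 6, Fgf6 (126965560 to 126974736) and Fgf23 (127022920 to 127031426) are 48.2 kb apart. No other members lie within 200 kb of each other.

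The 4 intracellular FGFs, which are not secreted and bind voltage-gated sodium channels, were low. Fgf11 stood at 2.69 and 1.39 RPKM, but on 7 and 4 reads over a counted length of 678 bases. Fgf13 stood at 1.26 and 1.23 RPKM on 12 and 13 reads, Fgf12 at 1.06 and 0.603 RPKM on 30 and 19 reads, and Fgf14 at 0.227 and 0.341 RPKM on 3 and 5 reads. None passed the exact binomial test, with the lowest adjusted p, 0.360, at Fgf12. The carrier protein Fgfbp3, which releases FGFs from the matrix, stood at 2.23 and 0.937 RPKM on 15 and 7 reads, a log2 ratio of -1.17 with an adjusted p of 0.340 in the exact test. Fgfbp1 was listed at 0 in both.

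Of the 13 Fgf genes above 0 in a library, 9 had the higher value in uterus 1 and 4 in uterus 2. Among the 6 whose mean reached 1 RPKM, the median log2 ratio was -0.57, beside a median of 0.00067 over the 13647 genes that reached it. The 10 Fgf genes that could be tested yielded 1 call, Fgf1, in the other direction. The Fgf genes together held only 231 and 256 reads, so most of these ratios are wide. The split of 9 to 4 includes Fgf5 and Fgf16, at 1 read against 0, and Fgf9, nearly level at 0.567 and 0.568 RPKM. It was not set beside the split of all genes, so no shift of the family is read from it.

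The summed level of the 4 receptors was 45.1 RPKM in uterus 1 and 44.4 RPKM in uterus 2. Fgfr2 (NM_010207, chromosome 7, 137305965 to 137410322, minus strand) had the highest mean of the 40 members, with 30.9 and 31.2 RPKM from 633 and 710 reads, which is percentile 90.3 of all genes by mean level. The ratio of the uteri was 1.01 (0.907 to 1.13). Fgfr2 gives rise to an epithelial splice form that binds FGF7 and FGF10 and a mesenchymal form that binds other ligands, and values per gene do not separate them. Fgfr1 (NM_010206, chromosome 8, 26629244 to 26686186, plus strand), the main mesenchymal receptor, stood at 11.9 and 11.6 RPKM on 229 and 247 reads, with a ratio of 0.972 (0.808 to 1.17).

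Fgfr2 exceeded Fgfr1 by 2.64 ± 0.0731 times (SD, n = 2), and the ranges of the pair do not overlap. Of the summed receptor RPKM, Fgfr2 made up 69.4% ± 1.21, Fgfr1 26.3% ± 0.270, Fgfr3 2.95% ± 0.0995 and Fgfr4 1.43% ± 0.836 (SD, n = 2 for each). Fgfr3 stood at 1.36 and 1.28 RPKM on 23 and 24 reads. Fgfr4 stood at 0.912 and 0.373 RPKM on 11 and 5 reads, with an adjusted p of 0.508 in the exact test.

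**Figure D2:**
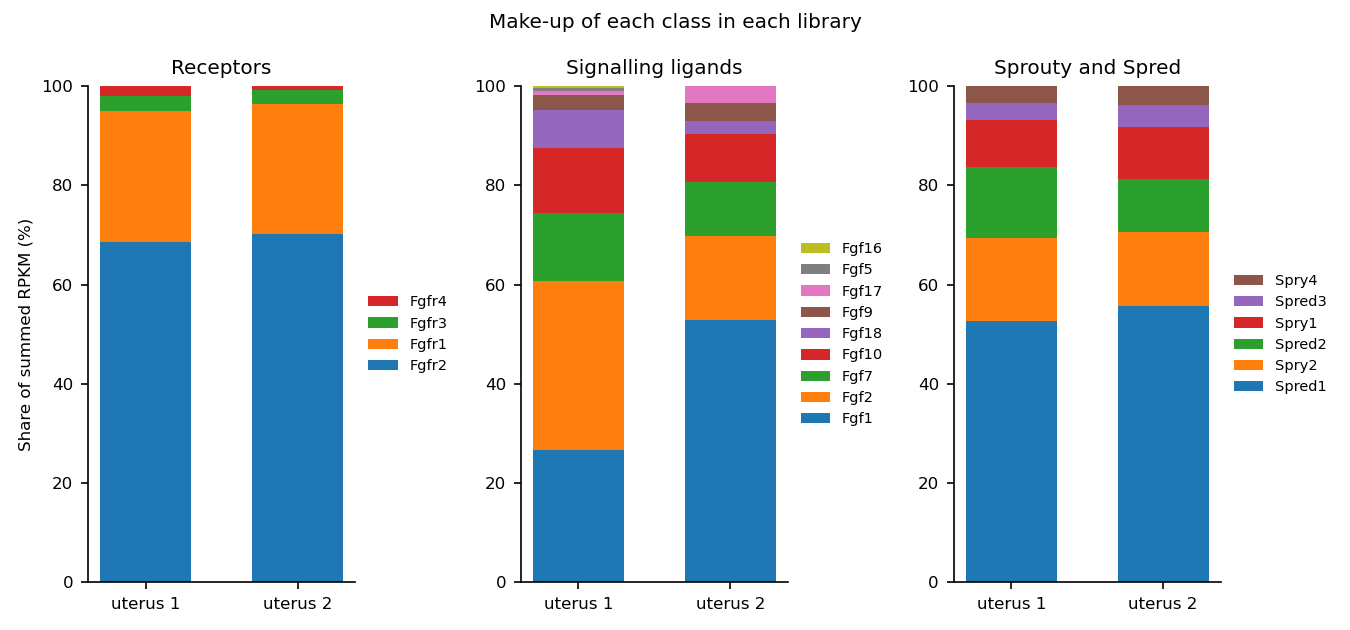
Share of the summed RPKM (percent) held by each gene in uterus 1 and uterus 2, for the 4 receptors, the signalling ligands above 0, and the Sprouty and Spred genes above 0. The receptor bars are nearly alike in both libraries, while Fgf1 holds 26.7% of the ligand sum in uterus 1 and 52.8% in uterus 2.

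Fgfrl1, a receptor that binds FGFs but lacks the kinase, stood at 6.97 and 7.61 RPKM on 71 and 86 reads, so Fgfr1 exceeded it by 1.62 ± 0.132 times (SD, n = 2). The klotho co-receptors, which endocrine FGFs need, were near the bottom: Klb stood at 0.152 and 0.205 RPKM on 2 and 3 reads, and Kl had 1 read in uterus 2 and was listed at 0 in uterus 1.

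The docking protein Frs2 (NM_177798, chromosome 10, 116507183 to 116585530, minus strand), through which receptors reach the RAS cascade, was the third highest member, at 21.7 RPKM (19.8 to 23.8) and 18.1 RPKM (16.5 to 19.9). With 474 and 439 reads, the value was 1.20 times higher in uterus 1 (1.05 to 1.37). The exact binomial test gave an unadjusted p of 0.00655 and an adjusted p of 0.102, so Frs2 did not pass. Its relative Frs3 stood at 1.34 and 1.54 RPKM on 11 and 14 reads. Frs2 exceeded Frs3 by 14.0 ± 3.12 times (SD, n = 2).

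The feedback inhibitors were led by Spred1. Spred1 (NM_033524, chromosome 2, 116947186 to 117005072, plus strand), which binds neurofibromin and holds RAS inactive, stood at 29.3 and 31.3 RPKM on 337 and 399 reads, a ratio of 1.07 (0.920 to 1.24). Its range overlaps that of Fgfr2, so the order of these 2 highest members is not settled. Spred1 made up 54.2% ± 2.09 of the summed Sprouty and Spred RPKM (SD, n = 2) and exceeded Spred2 by 4.45 ± 1.11 times. Spred2 stood at 7.99 and 5.97 RPKM on 88 and 73 reads, with an adjusted p of 0.379 in the exact test. Spred3 stood at 1.99 and 2.49 RPKM on 31 and 43 reads.

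Of the Sproutys, which restrain signalling downstream of receptor tyrosine kinases, Spry2 stood at 9.25 and 8.44 RPKM on 74 and 75 reads, and Spry1 at 5.24 and 5.94 RPKM on 50 and 63 reads. The ranges of the pair do not overlap, and Spry2 was 1.59 ± 0.244 times Spry1 (SD, n = 2). Spry4 was lower at 1.88 and 2.10 RPKM on 33 and 41 reads, and Spry3 was listed at 0 in both. The summed Sprouty and Spred level was 55.7 and 56.2 RPKM. None of the 6 tested passed the exact binomial test, and 0 had an unadjusted p under 0.05.

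Between the libraries, 2 of the 19 members whose mean reached 1 RPKM were 2-fold or more apart, Fgf2 and Fgfbp3, both with the higher value in uterus 1. Over the 13647 genes that reached it 2.6% were, 1.42% with the higher value in uterus 1 and 1.18% with the higher value in uterus 2. With a pseudocount of 1 RPKM neither Fgf2 nor Fgfbp3 was 2-fold apart. At an unadjusted p under 0.05 the exact binomial test gave 3 of 24 members, Fgf1, Fgf2 and Frs2, where 15.6% of all genes had such a p. The libraries thus differed by more than counting error in general, with a chi-square of 3.48 per gene over 13407 genes.

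**Figure D3:**
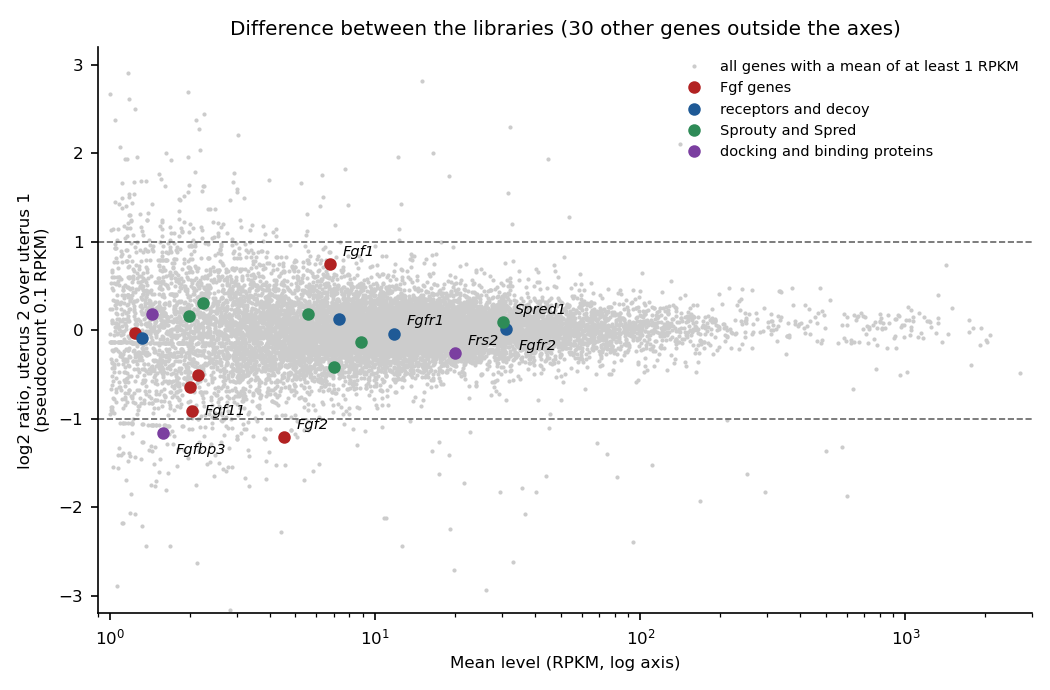
Log2 ratio of uterus 2 over uterus 1 (pseudocount of 0.1 RPKM) against the mean level in RPKM on a log axis, for all genes whose mean reached 1 RPKM (grey) and the 19 members among them (coloured by class), with dashed lines at 2-fold and 30 other genes beyond the axes. Fgf2 and Fgfbp3 lie beyond the lower line, and Fgfr2 and Spred1 lie near 0.

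The sequence before each start was read to see what the members share beyond their names. CpG dinucleotides, which read the same on both strands, were counted in the 250 bases before the deposited start of 39 members. The start of Spry3, on an unplaced piece of the X chromosome, was not used. The 18 detected members had a median of 19 CpGs (2 to 41), the 11 members above 0 but not at 1 RPKM in both 13 (4 to 37), and the 10 listed at 0 had 9 (3 to 28). Over all genes the medians were 16, 5 and 2. Members listed at 0 therefore held more CpGs than the median gene listed at 0, in a range that overlaps that of the detected members. A CpG occurred at least once in every member's window and in 93.2% of all 22663 windows. A count of 10 or more was found for 12 of the 18 detected members (66.7%) and 4 of the 10 at 0 (40.0%). Among all genes it was found for 71.7% of those detected, 11.2% of those at 0 and 50.6% of all windows.

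The 3 windows printed here were chosen after the counts were known: Fgfr2, the member with the highest mean level and the fewest CpGs, 2 (chr7:137410323-137410572, minus strand), Frs2, the third highest in level, with 19, the median of the detected members (chr10:116585531-116585780, minus strand), and Fgf21, listed at 0, with 9, the median of the members at 0 (chr7:52870861-52871110, minus strand). Each is printed 5′ to 3′ on the gene's strand from build NCBIM37 (mm9), with CpGs in capitals.
Fgfr2: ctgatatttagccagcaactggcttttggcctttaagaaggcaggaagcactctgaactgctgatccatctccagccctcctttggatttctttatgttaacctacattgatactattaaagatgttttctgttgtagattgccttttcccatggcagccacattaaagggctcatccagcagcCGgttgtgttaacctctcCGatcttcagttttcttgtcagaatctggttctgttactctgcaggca
Frs2: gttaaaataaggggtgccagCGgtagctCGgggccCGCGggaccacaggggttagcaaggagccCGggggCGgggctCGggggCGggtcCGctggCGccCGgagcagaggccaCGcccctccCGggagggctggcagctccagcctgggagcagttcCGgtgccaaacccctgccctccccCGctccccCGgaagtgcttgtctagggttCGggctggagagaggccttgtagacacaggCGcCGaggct
Fgf21: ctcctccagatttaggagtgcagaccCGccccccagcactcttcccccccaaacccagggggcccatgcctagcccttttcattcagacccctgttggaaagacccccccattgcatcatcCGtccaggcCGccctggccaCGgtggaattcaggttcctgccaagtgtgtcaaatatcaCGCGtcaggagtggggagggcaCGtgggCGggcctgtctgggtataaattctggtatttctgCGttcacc

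Fgfr2, with the highest mean, thus has fewer CpGs in this window than the endocrine ligand at 0. Spred1, whose range of levels overlaps that of Fgfr2, has 41, the most of any member. The start used is the deposited one, and other starts of the same gene were not used.

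**Figure D4:**
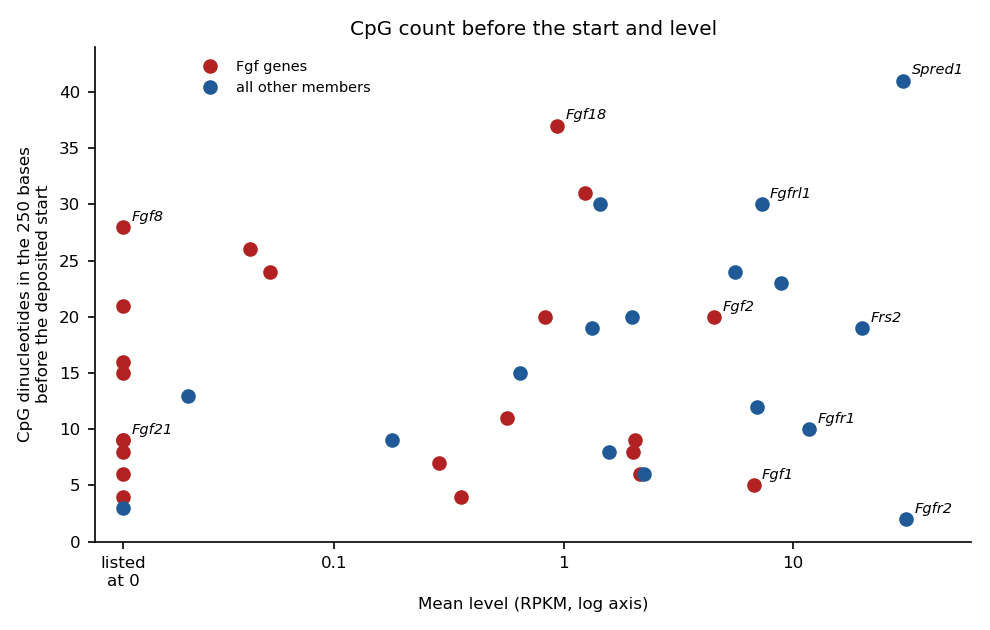
Number of CpG dinucleotides in the 250 bases before the deposited start against mean level (RPKM, log axis, with values listed at 0 at the left) for Fgf genes (red) and the other members (blue). Fgfr2 with 2 CpGs and Spred1 with 41 sit side by side near 30 RPKM.

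The rest of the pathway was broadly present. All 19 genes of the RAS to ERK list that were in the table stood at 1 RPKM or more in both, with medians of 24.4 and 22.7 RPKM. Hras was not analysed here. The adaptor Shc1 was highest at 51.9 ± 1.48 RPKM (SD, n = 2), followed by the ERK kinase Mapk3 at 48.9 ± 2.52 RPKM. None of the 19 passed the exact binomial test, where 4.66% of all genes did. An unadjusted p under 0.05 was found for 3 of the 19 and for 15.6% of all genes. The median log2 ratio of the 19 was -0.06.

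Genes listed as transcriptional targets and other feedback of the pathway were lower than the RAS to ERK genes, with 8 of 11 detected. Their medians were 3.05 and 3.16 RPKM. Dusp6, the phosphatase that turns off ERK, led at 13.2 and 16.0 RPKM, followed by the membrane protein Flrt2 at 12.6 and 10.8 RPKM and the transcription factor Etv5 at 10.1 and 8.18 RPKM. Its relative Etv4 stood at 0.893 and 0.302 RPKM on 8 and 3 reads. None of the 11 passed the exact binomial test. At an unadjusted p under 0.05 there were 2, Flrt2 and Flrt1, with log2 ratios of -0.22 and 0.59.

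Heparan sulphate, the cofactor of FGF binding, is built and trimmed by 17 genes of the list, of which 14 stood at 1 RPKM or more in both. The sulphatases Sulf1 and Sulf2, which trim the chains, were the highest, at 45.5 ± 4.66 and 35.2 ± 1.58 RPKM (SD, n = 2), followed by Extl3 at 31.2 ± 0.957 RPKM. Sulf1 was higher in uterus 2 by a log2 ratio of 0.21, with an adjusted p of 0.0495, and the N-sulphating enzyme Ndst1 was lower by -0.31, with an adjusted p of 0.0149, both by the exact binomial test. Of the proteoglycan cores, 10 of 11 were detected. Hspg2, perlecan of basement membranes, stood at 81.2 and 62.02 RPKM, Gpc1 at 62.6 and 50.4 RPKM and Sdc4 at 53.9 and 56.6 RPKM. Hspg2 and Gpc1 were lower in uterus 2, with log2 ratios of -0.39 and -0.31, and the exact test gave adjusted p of 3.61e-31 and 0.000881. They were the 2 that passed among 10 cores tested. Sulf1 and Ndst1 were the only ones among 16 synthesis and trimming genes tested, and 4.66% of all genes passed. The test covers counting error only, and Hspg2 rests on 4416 and 3742 reads, so its small p does not measure a large difference.

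The factors that choose between receptor splice forms were all detected. Esrp1 and Esrp2, which favour the epithelial form, stood at 10.8 ± 1.19 and 4.16 ± 0.217 RPKM (SD, n = 2), and Rbfox2 and Ptbp1, which are widely expressed, at 28.8 ± 1.58 and 78.9 ± 2.36 RPKM. None of the 4 passed the exact binomial test, and 0 had an unadjusted p under 0.05.

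Of the regulators that act on uterine FGFs or beside them, Esr1 stood at 107 and 99.2 RPKM, Pgr at 77.5 and 66.4 RPKM, Nr2f2 at 60.04 and 55.6 RPKM, and Hand2 at 33.3 and 39.5 RPKM. Ihh, the epithelial signal upstream of Nr2f2 and Hand2, stood at 7.58 and 10.4 RPKM, Msx1 at 18.6 and 17.9 RPKM and Msx2 at 0.603 and 0.869 RPKM. Only Pgr of these 7 passed the exact binomial test, with a log2 ratio of -0.22 and an adjusted p of 8.30e-05. Hand2 had the higher value in uterus 2, with an adjusted p of 0.242 in the exact test. With 2 libraries no relation between Hand2 and the ligands can be tested.

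**Figure D5:**
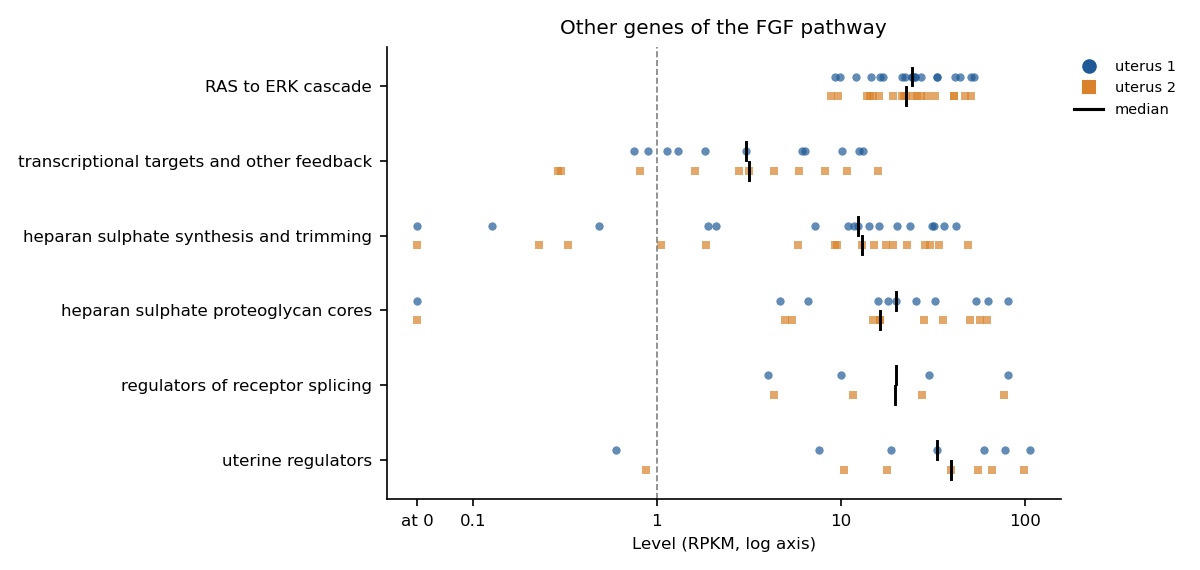
Level (RPKM, log axis, with values listed at 0 at the left) of each gene of 6 pathway lists in uterus 1 (circles) and uterus 2 (squares), with the median of each list and library as a black bar and a dashed line at 1 RPKM. The RAS to ERK genes lie between 8.79 and 53.0 RPKM, while the target and feedback genes reach down to 0.290 RPKM.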

How the data were processed

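RNA sequencing of whole uterus, 1 library per mouse, gave 2 samples of 1 group. The authors deposited RPKM per gene, as the series' design text states; TopHat, edgeR and build mm9 are named in the submitters' processing notes, without versions, while the program that counted reads, the release of the annotation and the strand setting are not given in the sources used here. A second deposited table (23366 genes) repeats the values of these 22740 genes with coordinates, whose starts count from 0 (12380 of 21203 genes match a GENCODE M1 start on NCBIM37 after adding 1); coordinates here count from 1.

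Reads were recovered from RPKM. Single-exon genes of known length gave scaling totals of 3834174 and 4256101, and all 17426 genes above 0 were then whole reads over a whole length (relative tolerance 1e-12). Multiples of the shortest such length were set by annotated exons inside the deposited span (within 5%), for 14178 genes and 24 of the 29 members above 0, 15 of them exactly; the others keep their smallest reads. Ratios are log2 of uterus 2 over uterus 1 with a pseudocount of 0.1 RPKM, for genes whose mean reached 1 RPKM, and understate changes of low genes. The exact binomial test was two-sided, needed at least 6 reads in sum and took its expected share from the scaling totals. Benjamini-Hochberg adjustment was over all genes. The test was also run on simulated data, with the outcome not given here. That run does not show how the test behaves on these libraries, whose chi-square was 3.48 per gene. Python 3.11.15, SciPy 1.17.1 and pandas 2.3.3 were used. Intervals are exact (Poisson for levels, Clopper-Pearson for ratios) and cover counting error only.

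Named were all members, the 3 highest genes of each pathway list with any 2-fold apart, and all uterine regulators; Etv4, Ndst1, Flrt1, Esrp2, Rpl26, Gm5820, Nudt6, the called cell type markers and the markers at 0 were named after their values were seen. A gene that this rule names is not reported here. Members and lists were chosen with earlier results of these data known. Thresholds, pseudocounts, read estimates and single libraries were varied.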

Additional observations from a re-analysis of the deposited data

How the results depend on the processing

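The count of 18 detected members was 10 at 2 RPKM, where 53.2% of all genes passed, and 18 to 21 with either library alone. The 2 members at least 2-fold apart became 0 with a pseudocount of 1 (1.12% of all genes), 0 at a mean of at least 5 RPKM (0.722% of all genes) and 6 of 29 without a filter (10.6% of all genes), when Fgf17, Fgf18, Fgf5 and Fgfr4 joined; each alternative changes which low values can pass. The 1 member called by the exact binomial test, Fgf1, became 0 with the smallest possible reads, where 3 members had an unadjusted p under 0.05 and 581 of 14896 genes were called; fewer reads were tested by construction. Fgfr2 held 71.3% of receptor reads, beside 69.4% of receptor RPKM (68.5% to 70.2% over single libraries). Fgf1 and Fgf2 held 73.4% among ligands detected in both alone, beside 65.2% (60.8% to 69.7%). Spred1 held 52.7% to 55.6% of the Sprouty and Spred RPKM over single libraries and 56.2% of the reads. Of the alternatives to these counts and shares, single libraries aside, 8 stayed within 1.5 times the count or 1 SD of the share, the Spred1 share of reads among them. The others moved. They were the 2 RPKM threshold, the pseudocount of 1, the mean of 5 RPKM, no filter and the smallest reads. The Fgfr2 share of reads and the share of Fgf1 and Fgf2 among ligands detected in both moved too. The levels of the 18 detected members stayed within 1 SD in 54 of 54 alternatives, none of which could have moved them. A mean of 2 libraries ensures this when either is left out, and the second deposited table repeats the same values. No paired analysis was possible because both libraries belong to 1 group. Depth limits the Fgf genes, which hold 231 and 256 reads in all.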
